A study of Mus musculus with 6 samples.

Results

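Genes of the translation initiation machinery were described in XY and XX mouse oocytes. Members were taken as the array probe sets whose platform annotation gives a single gene symbol beginning with Eif and a digit. Eif4e1b, Eif4enif1, the Argonaute genes once called Eif2c, Eif2s3x and Eif2s3y were left out by that rule. It returned 127 probe sets of 44 genes, among 45037 probe sets on the array that are not controls. A filter on dim probe sets, which asks that 3 or more of the 6 arrays give a value no lower than their own median, left 99 of the 127 probe sets and 42 of the 44 genes. Eif2ak2, the kinase activated by double-stranded RNA, and Eif4a3, a helicase of the exon junction complex, did not pass it and were not tested. The 42 genes belong among 12442 genes tested in all, and none of the 42 passed the filter through XX or XY arrays alone.

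Fully grown oocytes at the germinal vesicle stage, which are arrested in meiotic prophase and live on stored mRNA, were compared between XY females and their XX littermates of B6.Y(TIR). In B6.Y(TIR), a Y chromosome from the Tirano population on the C57BL/6 background leaves some XY animals with ovaries. All animals were 25 to 29 days old, had received 5 IU of equine chorionic gonadotropin, and were killed 45 to 47 h later. Each array held RNA of 10 oocytes that had been freed of cumulus cells, with 3 XX and 3 XY arrays in all, made from 3 females of each genotype. XY and XX oocytes differ both in having a Y chromosome and in having 1 or 2 X chromosomes, and no array of XO oocytes was analysed here, so the effects of these differences cannot be told apart.

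Initiation begins when eIF2 carries the initiator tRNA to the small ribosomal subunit, where eIF1, eIF1A, eIF3 and eIF5 assemble with it. The eIF4 factors bind the mRNA cap, unwind the leader and bring the mRNA to this complex, which scans for the start codon before eIF5B joins the large subunit. Growing oocytes store mRNAs that are translated later, during meiotic maturation and early cleavage. The control of the cap-binding factor eIF4E by eIF4E-binding proteins is a known part of that regulation.

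The arrays matched their labels. Eif2s3y, the Y-linked gene of the eIF2 gamma subunit and no member here, had quantile-normalized intensities of 425 to 633 in XY and of 0.25 to 19.0 in XX. All 11 measured oocyte markers passed the filter, with a summed intensity of 89600 to 92400 in XX and 81800 to 87000 in XY. Of 13 measured granulosa and cumulus markers 9 passed, while Amh, Inhba, Tnfaip6 and Ptx3 did not pass. The summed intensity of all 13 was 1330 to 1620 in XX and 1500 to 1680 in XY. Nr5a2, at 710 to 940, made up much of that sum. Inha, at 37.6 to 139 in XX and 176 to 252 in XY, rose by 1.58 ± 0.41 (limma's adjusted p = 0.0475). Kitl, of the same list, lay at 178 to 252 in XX and 109 to 149 in XY. Its change was -0.63 (limma's adjusted p = 0.0715). Inhbb and Nr5a2 changed by -0.07 and -0.16, and Foxl2, Fshr, Hsd17b1, Has2 and Ptgs2 by 0.06 to 0.89. None of these passed an adjusted p of 0.05. Theca and stroma markers summed to 226 to 281 in XX and 344 to 421 in XY, with 3 of 6 passing. Markers of blood and immune cells (1 of 3 passing) summed to 59.2 to 68.1 in XX and 80.7 to 99.0 in XY, and those of endothelium (2 of 3) to 62.4 to 151 and 99.0 to 177. Among the other markers, the oocyte growth factor gene Bmp15 fell by 1.34 (adjusted p = 0.0101) and the macrophage marker Cd68 rose by 0.59 (0.0392). The part of these other cells in the results below was not tested. The deposited intensity of the control probe set for the 5′ end of Actb was 183 and 188 in XX 2 and XX 3, but 45.9 in XX 1 and 54.7 to 62.7 in the XY arrays, so XX 1 lay with the XY arrays in this sign of RNA or labelling quality.

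Of the 42 initiation factor genes, 2 differed between XY and XX oocytes. Eif4ebp1, whose product holds eIF4E away from eIF4G, rose in XY, and Eif1ax, an X-linked scanning factor, fell. The other 40 did not pass the test, an adjusted p of at most 0.05 by limma with Benjamini-Hochberg adjustment over all genes. The share of initiation factor genes called was 4.76%, against 13.2% of all genes tested (7.86% higher in XY and 5.34% lower). Changes are given as XY minus XX on the scale of log2(quantile-normalized intensity + 9), with the standard error (SE) of the fit. The median change of the 42 genes was 0.11, against 0.07 for all genes, and 28 of the 42 changes (66.7%) were positive, against 55.6% of all genes. The sign of both medians turned with the scaling: they were -0.17 and -0.12 with deposited values and -0.32 and -0.27 with median scaling. In size the median change was 0.22, against 0.34 for all genes, with median SEs of 0.18 and 0.20. Normalization made the distributions of the arrays equal, so these values are relative to the other transcripts of the oocyte and do not show a difference in its total RNA.

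A look at overlap between the arrays gave a different share. For 17 of the 42 genes (12 higher in XY and 5 lower) the 3 XY values did not overlap the 3 XX values. This is 40.5% of them, close to the 38.8% among all genes (22.6% higher and 16.2% lower). An unadjusted p under 0.05 was reached by 8 of 42 genes, or 19.0%, against 32.2% of all genes. A change of at least 1 on the log2 scale was seen for 1 of 42, against 8.72% of all genes. Among the 40 genes not called, changes ran from -0.80 to 0.80 with adjusted p from 0.0544 to 0.986, and 35 of them lay within 0.5 of zero.

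**Figure D1:**
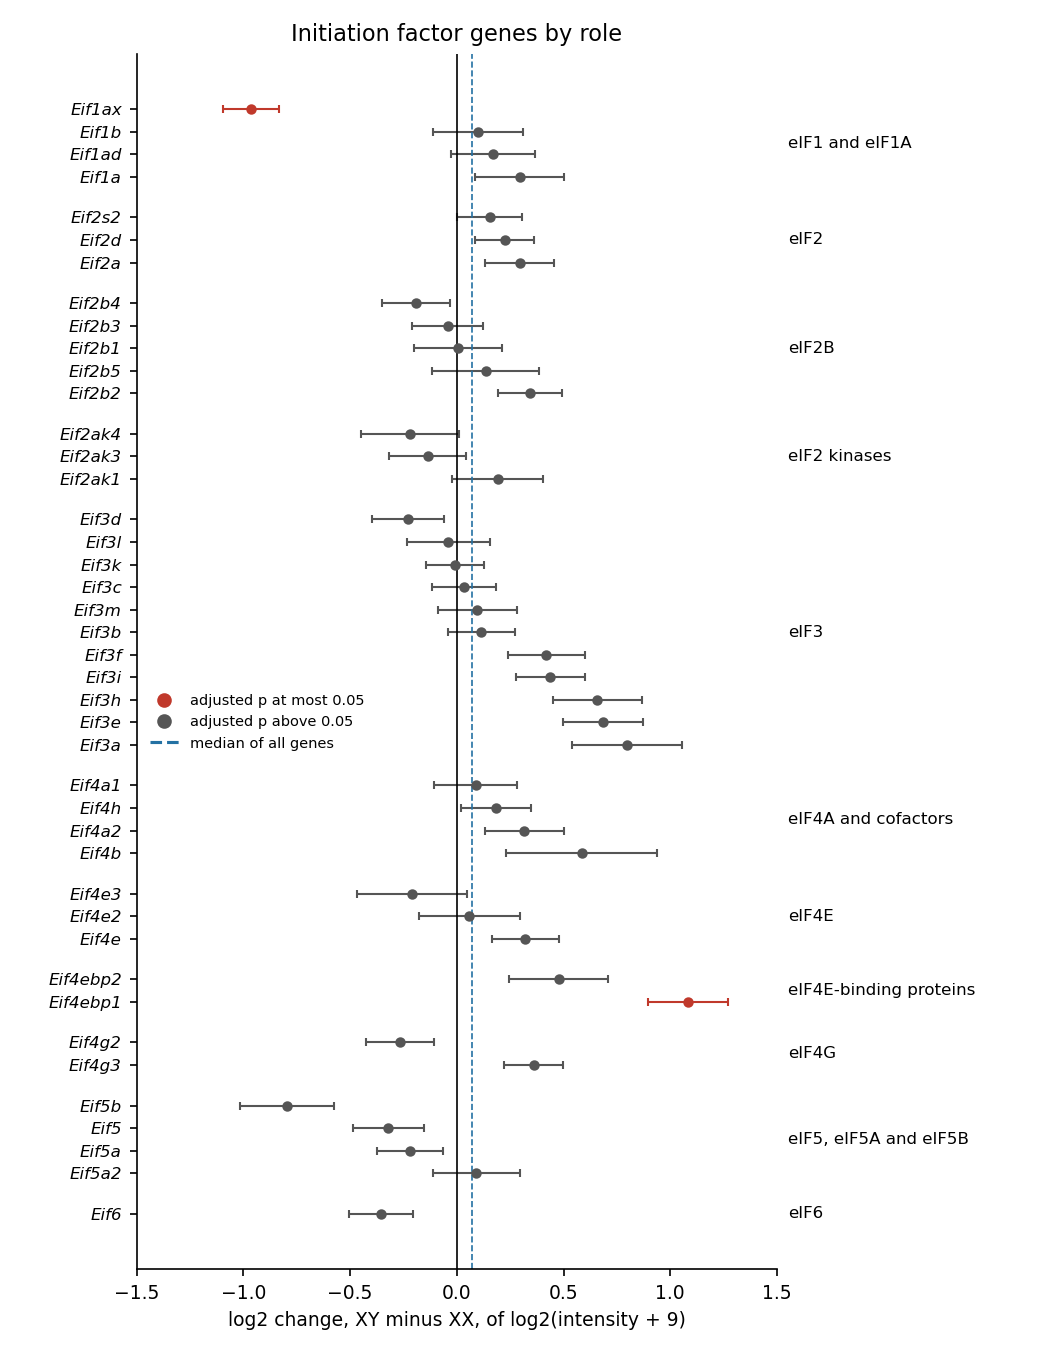
Change of each of the 42 initiation factor genes, XY minus XX, on the scale of log2(intensity + 9), ordered by role; points are estimates from 3 arrays per group, bars are 1 SE, and the dashed line is the median of all genes tested. Eif1ax at -0.96 and Eif4ebp1 at 1.08 are the 2 genes past the adjusted p of 0.05, and the eIF3 group spans -0.23 to 0.80.

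**Figure D2:**
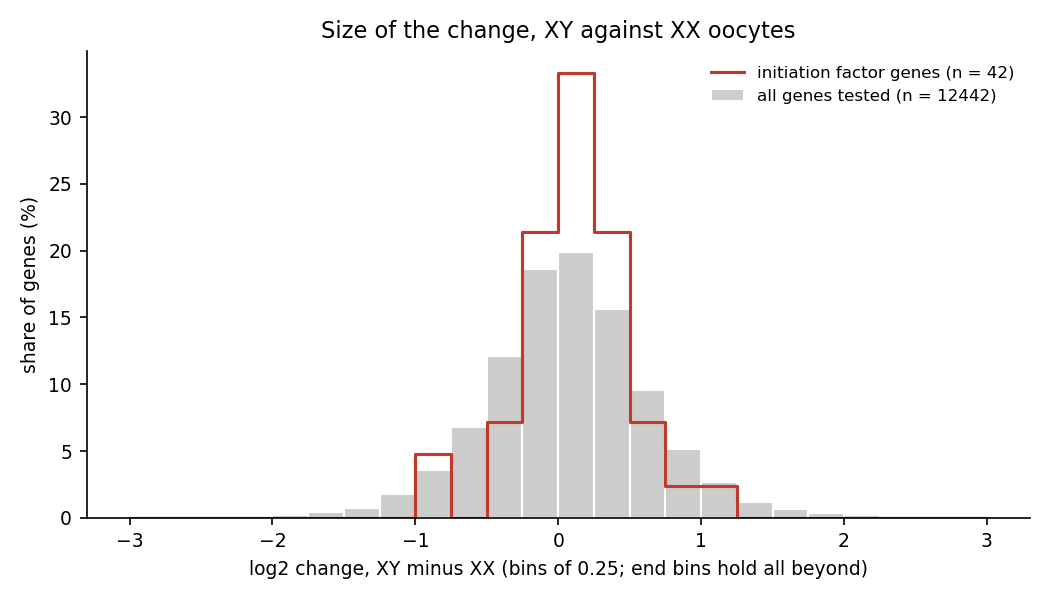
Share of genes, in percent, by size of the log2 change between XY and XX in bins of 0.25, for all 12442 genes tested (bars) and for the 42 initiation factor genes (line). The initiation factor genes lie between -0.96 and 1.08, and 2.38% of them reach a change of 1, against 8.72% of all genes.

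The factors eIF1 and eIF1A bind the small subunit and keep it open for scanning until the start codon is found. Eif1ax (gene ID 66235) lies at chrX:159372178-159389621 on GRCm38.p6 and encodes the X-linked copy of eIF1A. Its levels were 12.21, 12.23 and 12.13 in the XX arrays and 11.23, 11.21 and 11.22 in the XY arrays. The groups were well separated, with an SD of 0.055 in XX and 0.011 in XY. The change was -0.96 ± 0.13 (SE, 3 arrays per group), with limma's adjusted p = 0.00845. In deposited intensities the XX arrays read 4264, 5568 and 5828 and the XY arrays 2508, 1773 and 1896. A dimmer probe set of the gene changed by -0.71 (adjusted p = 0.0684 over all kept probe sets), and the remaining one, which did not pass the filter, differed by -1.82. The call was kept in 18 of 19 alternative settings, over which the change ran from -1.51 to -0.84.

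Eif1ax is the only X-linked gene among the 44. Of 375 X-linked genes tested, 95 (25.3%) were lower and 16 (4.27%) higher in XY oocytes, against 5.34% and 7.86% of all genes. The median change of the X-linked genes was -0.28, against 0.07 for all genes. A change at or below that of Eif1ax was seen in 17.6% of the X-linked genes, and the like share of all genes was not taken. Eif1a, the autosomal copy of the same factor, was dim, at 5.61 to 6.22 in XX and 5.93 to 6.29 in XY. Its groups overlapped, and its change of 0.29 ± 0.21 had an adjusted p of 0.363. Eif1b and Eif1ad, a relative of eIF1 and a protein with an eIF1A domain, changed by 0.10 and 0.17 with overlapping groups.

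The stretch of 100 bases just before the RefSeq start of Eif1ax is shown because this gene fell in XY oocytes, and that before Eif5b because this gene, described further on, had the largest negative change among those not called. Capitals mark the GC box GGGCGG, a binding motif of Sp1-type factors, searched on both strands; the sequences are those of RefSeq on GRCm38.p6, both on the plus strand, at chrX:159372078-159372177 and chr1:37997910-37998009.
Eif1ax: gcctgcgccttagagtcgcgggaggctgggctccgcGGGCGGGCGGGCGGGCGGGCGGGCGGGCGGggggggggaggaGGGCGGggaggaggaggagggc
Eif5b: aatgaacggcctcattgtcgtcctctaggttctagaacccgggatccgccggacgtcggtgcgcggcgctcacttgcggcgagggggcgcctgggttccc
The stretch of Eif1ax held 8 GC boxes, most of them in an unbroken GGGC repeat, and that of Eif5b held 0. Matches that share bases were each counted, as in that repeat.

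Promoters of the initiation factors were compared with those of the genes tested, over windows from 250 bases before to 50 bases after each RefSeq start. Of the 44 genes 35 had a promoter in the table, with 45 promoters between them. The ETS motif CCGGAAG was present for 14 of the 35 genes (40.0%), against 18.6% of 10050 tested genes with a promoter. The E-box CACGTG was present for 9 genes (25.7%, against 11.4%), among them Eif3a, Eif3f, Eif4a1, Eif4e, Eif4h and Eif5a. The GC box was present for 26 genes (74.3%, against 65.1%), CCAAT for 13 (37.1%, against 42.9%) and TATAAA for 2, Eif3b and Eif3f (5.71%, against 9.58%). The letters ATGGCGG, the core of a YY1 motif, were in none of the 35 (0 of 35, against 8.74%). A start at a C followed by at least 4 pyrimidines, the first bases of a terminal oligopyrimidine tract, was found at 1 of 45 promoters (2.22%), against 2.42% of promoters of tested genes. Both strands were searched for the motifs, and no motif contains another. These counts describe letters in the windows and were not tested.

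The eIF2 complex delivers the initiator tRNA. Eif2a, a separate tRNA-binding factor that is not a subunit of eIF2, was the gene of this group with the smallest p. Its levels were 8.41, 8.17 and 8.28 in XX and 8.45, 8.51 and 8.80 in XY. The groups did not overlap, but the change of 0.30 ± 0.16 did not pass the test (adjusted p = 0.249 by limma). Eif2d, which can also deliver tRNA, and Eif2s2, the beta subunit of eIF2, changed by 0.22 and 0.15, each with XY values above all XX values.

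Eif2s2 gave different answers by probe set. The brightest of its 5 kept probe sets read 13.09, 13.40 and 13.42 in XX and 13.48, 13.42 and 13.47 in XY. Another read 8.75, 8.81 and 8.66 in XX and between 7.35 and 7.83 in XY, a change of -1.18 ± 0.18 with an adjusted p of 0.0135 by limma over all kept probe sets. The remaining 3 changed by -0.35 to 0.21. The probe sets of this gene therefore carried opposite signs, and no direction is given for it.

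The exchange factor eIF2B reloads eIF2 with GTP, and the eIF2 kinases block that step under stress. None of the 5 eIF2B genes and none of the 3 kinase genes tested passed the test. Eif2b2, the beta subunit, had levels of 11.73, 11.57 and 11.41 in XX and 11.88, 11.94 and 11.92 in XY. Its groups did not overlap, and the change of 0.34 ± 0.15 had an adjusted p of 0.162. The 3 kept probe sets of Eif2b2 ran from -0.01 to 0.34, and averaged over them the gene changed by 0.12. The other eIF2B genes changed by -0.19 to 0.14 with overlapping groups. Eif2ak4 (GCN2), the amino acid sensor, had the smallest p of the kinases, with levels of 9.78, 10.24 and 10.64 in XX and 10.05, 10.00 and 9.94 in XY. The XX arrays spanned the XY arrays on both sides, and its change of -0.22 ± 0.23 had an adjusted p of 0.541. Eif2ak1, the heme-regulated kinase, and Eif2ak3 (PERK), the kinase of endoplasmic reticulum stress, changed by 0.19 and -0.14.

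The large eIF3 complex is the scaffold of the small-subunit assembly. Of its 11 genes tested, 0 passed the test (against 13.2% of all genes) and 4 had an unadjusted p under 0.05 (against 32.2%). Changes were positive for 8 (55.6% of all genes were), and the median change was 0.12, against 0.07 for all genes. For 5 of the 11, Eif3a, Eif3e, Eif3f, Eif3h and Eif3i, the XY values lay above all XX values, against 22.6% of all genes. Eif3e had the smallest p, with levels of 12.73, 12.36 and 12.14 in XX and 13.07, 13.20 and 13.01 in XY. XX 1 was the XX array nearest to XY. The change was 0.69 ± 0.19 with limma's adjusted p = 0.0544, just outside the threshold. The probe set standing for it has a name ending in x_at, a class in which some probes can match other transcripts, and its 3 kept probe sets changed by 0.65 to 0.69. It passed the test in 5 of 19 alternative settings.

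Eif3a, Eif3h, Eif3i and Eif3f were chosen for mention after their values were seen. Eif3a, the largest subunit, read 10.34, 9.59 and 9.52 in XX and 10.34, 10.71 and 10.79 in XY. XX 1 lay level with XY 1, and the 2 other XX arrays lay lower. Its change was 0.80 ± 0.26 (adjusted p = 0.0801), and its 4 kept probe sets ran from -0.47 to 0.80. Eif3h changed by 0.66 (adjusted p = 0.0770), Eif3i by 0.44 (0.112) and Eif3f by 0.42 (0.156). The other 6 subunits, among them Eif3b and Eif3c of the core, changed by -0.23 to 0.12 with overlapping groups.

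The sign of the eIF3 median depended on the scaling of the arrays, as did that of all genes. It was -0.20 with deposited values, -0.36 with median scaling and 0.11 with trimmed mean scaling, while the median of all genes was -0.12, -0.27 and 0.18. Relative to all genes the eIF3 median was thus 0.05 higher as reported and 0.07 to 0.09 lower in these 3 settings. The changes of Eif3a, Eif3e and Eif3h stayed positive under each of these scalings, while Eif3f and Eif3i were at -0.12 and -0.04 with median scaling.

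**Figure D3:**
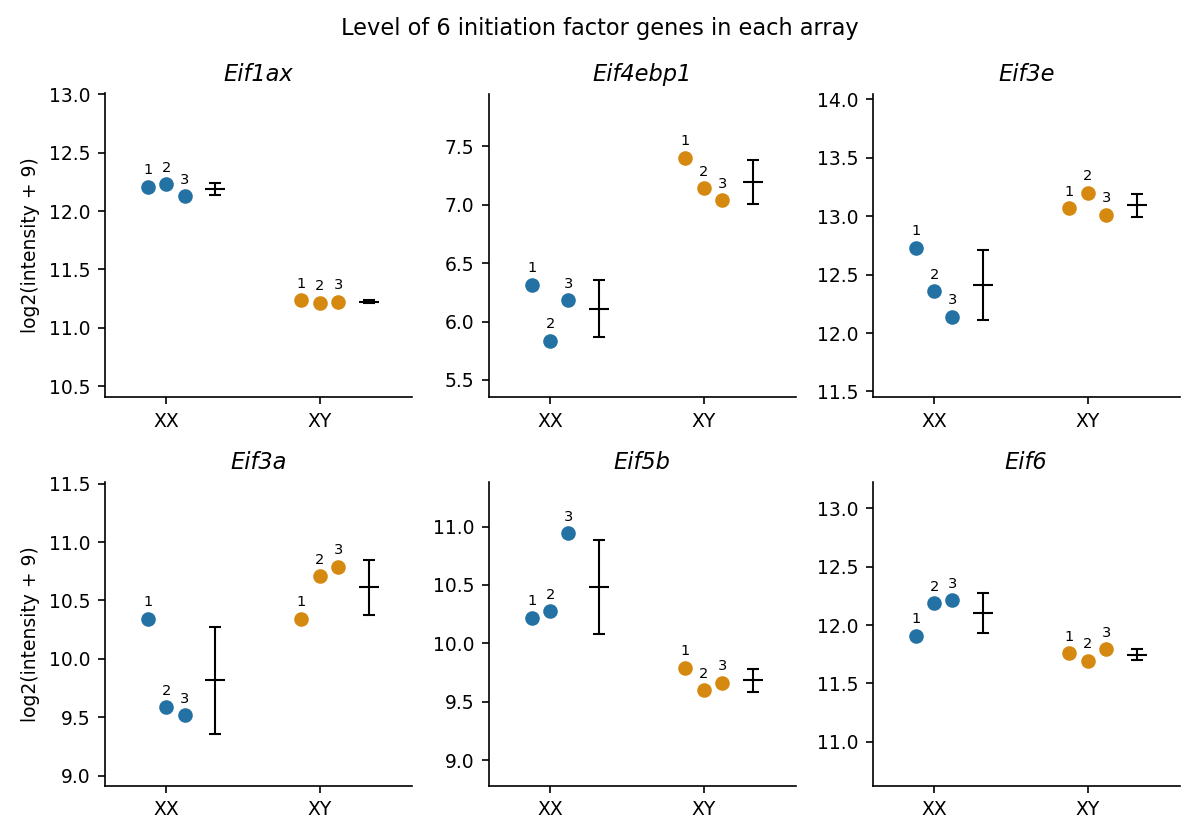
Level of 6 initiation factor genes on the scale of log2(intensity + 9) in each of the 3 XX and 3 XY arrays, numbered as in the labels; the black bars give mean ± SD, and each panel spans the same range of log2 units. Eif1ax separates the groups by 0.96 with little spread, and XX 1 is the XX array nearest to the XY arrays for Eif4ebp1, Eif3e, Eif3a, Eif5b and Eif6.

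The helicase eIF4A and its cofactors eIF4B and eIF4H unwind the leader of the mRNA. None of the 4 genes tested passed the test, and in all 4 the groups overlapped. All 4 changes were positive as reported, but with median scaling Eif4a1 (-0.45), Eif4a2 (-0.14) and Eif4h (-0.23) were negative. Eif4a2, a helicase, read 8.96, 8.53 and 8.40 in XX and 8.93, 9.06 and 8.85 in XY, a change of 0.32 ± 0.19 (adjusted p = 0.277). XX 1 lay among the XY values. Eif4a1, the main helicase, changed by 0.09 ± 0.19 at its brightest probe set, where the groups overlapped. A dimmer probe set read 8.55, 8.57 and 8.57 in XX and 7.94, 7.71 and 7.98 in XY, a change of -0.69 ± 0.16 with an adjusted p of 0.0371 over all kept probe sets. No direction is given for Eif4a1 for that reason.

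The cap is bound by eIF4E and by its relatives eIF4E2, a repressor of cap-dependent translation, and eIF4E3. Eif4e read 11.50, 11.44 and 11.25 in XX and 11.66, 11.90 and 11.60 in XY. The groups did not overlap, and the change of 0.32 ± 0.16 had an adjusted p of 0.202. The 4 kept probe sets of Eif4e ran from -0.22 to 0.44. Eif4e2 and Eif4e3 changed by 0.06 and -0.21 with overlapping groups, and the 5 probe sets of Eif4e2 ran from -0.42 to 1.18.

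The eIF4E-binding proteins hold eIF4E away from eIF4G until mTOR phosphorylates them. Eif4ebp1 (gene ID 13685) lies at chr8:27260327-27275656 on GRCm38.p6. Its levels were 6.31, 5.84 and 6.18 in XX and 7.40, 7.14 and 7.04 in XY. Every XY array lay above every XX array, and the change was 1.08 ± 0.19 (SE, 3 arrays per group) with limma's adjusted p = 0.0150. In deposited intensities the XX arrays read 58.5, 49.0 and 70.4 and the XY arrays 172, 114 and 111, so the gene was dim on every array. The call rests on a probe set of the x_at class. The 2 other kept probe sets changed by 0.34 and 0.09 (adjusted p = 0.704 and 0.878) and, averaged over its probe sets, the gene changed by 0.50 (adjusted p = 0.299). The call was also lost without XY 1, where the change was 0.98 (adjusted p = 0.0528).

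Eif4ebp2, the relative of Eif4ebp1, read 7.65, 7.09 and 6.95 in XX and 7.51, 7.61 and 8.01 in XY. The groups overlapped through XX 1, and the change of 0.48 ± 0.23 had an adjusted p of 0.201. Its 2 kept probe sets ran from -1.12 to 0.48.

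The scaffold eIF4G joins eIF4E and eIF4A to the ribosome. Eif4g3 read 9.91, 9.78 and 9.92 in XX and 10.16, 10.23 and 10.29 in XY, with no overlap. Its change of 0.36 ± 0.14 had an adjusted p of 0.122, and its 3 kept probe sets ran from -0.11 to 0.36. Eif4g2 (DAP5), a relative without the eIF4E-binding region, had XY values below all XX values, with a change of -0.27 ± 0.16 (adjusted p = 0.285).

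The late factors eIF5 and eIF5B act at start codon choice and subunit joining, and eIF5A acts mainly in elongation. Eif5b read 10.22, 10.28 and 10.94 in XX and 9.79, 9.60 and 9.66 in XY. The groups did not overlap, and XX 3 was the highest array. The change was -0.80 ± 0.22 with limma's adjusted p = 0.0556, just outside the threshold. Its other kept probe set read 9.90, 10.05 and 10.17 in XX and 9.16, 8.28 and 8.39 in XY, a change of -1.43 ± 0.26 with an adjusted p of 0.0200 over all kept probe sets. Averaged over both, the gene changed by -1.11 (adjusted p = 0.0176), and it passed the test in 7 of 19 alternative settings. Eif5, the activator of GTP hydrolysis by eIF2, changed by -0.32 ± 0.17 without overlap (adjusted p = 0.223), and its 5 kept probe sets all had negative changes. Eif5a and Eif5a2 changed by -0.22 and 0.09 with overlapping or tied groups.

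Eif6 keeps the large subunit from joining too early and takes part in its assembly. Its levels were 11.91, 12.19 and 12.21 in XX and 11.76, 11.69 and 11.79 in XY. XX 1 was the nearest to XY, the groups did not overlap, and the change was -0.35 ± 0.15 (adjusted p = 0.155).

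Over all 99 kept probe sets of these genes, 5 passed limma's adjusted p (5.05%, against 10.5% of 22997 probe sets): 1 was higher in XY (Eif4ebp1) and 4 were lower (Eif1ax, Eif2s2, Eif4a1 and Eif5b). Higher calls made up 5.08% and lower calls 5.41% of all probe sets. The groups did not overlap for 36 of the 99, against 36.6% of all probe sets. Of the 29 genes with several kept probe sets, 13 had changes of both signs. The other 13 genes had a single kept probe set, so their direction could not be checked within the array.

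**Figure D4:**
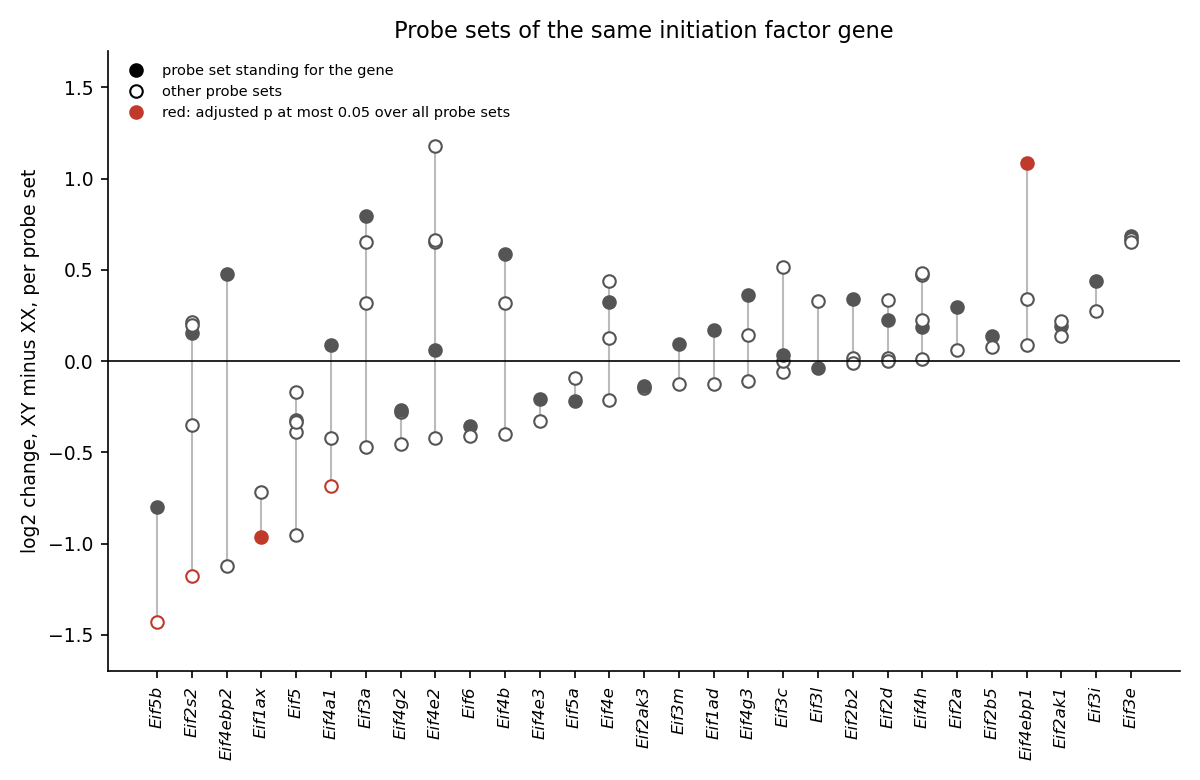
Log2 change, XY minus XX, of each kept probe set of the 29 initiation factor genes with more than 1; the filled point stands for the gene in the gene-level test, open points are its other probe sets, and red marks an adjusted p of at most 0.05 over all probe sets. For 13 of the 29 genes the points lie on both sides of zero, as for Eif2s2 between -1.18 and 0.21.

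The XX arrays varied more than the XY arrays over these genes. The median SD was 0.26 in XX and 0.10 in XY (0.26 and 0.17 over all genes), and it was larger in XX for 38 of 42 genes (90.5%, against 66.0% of all genes). XX 1 lay nearer to the XY mean than to the mean of XX 2 and XX 3 for 31 of 42 genes (73.8%, against 50.2%). Across the 42 genes, which are not independent replicates, XX 1 correlated with the XY arrays at 0.985 to 0.987 and with XX 2 and XX 3 at 0.977 and 0.978. On the first principal component of the 42 genes, which held 63.6% of the variance, XX 1 stood at -0.11, XX 2 and XX 3 at 2.17 and 1.65, and the XY arrays between -1.36 and -1.04.

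The number of initiation factor genes called moved with the settings, and so did the share of all genes. It was 4 of 42 with median scaling (against 16.9% of all genes), 5 with a pseudocount of 32 (17.5%), 7 with a variance trend on intensity (19.6%) and 8 with array weights (26.2%). With a stricter filter at the 70th percentile it was 6 of 40 (25.8%), and without XY 1 it was 1 of 42 (4.87%).

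Without XX 1, 10 of the 42 genes passed limma's adjusted p (23.8%, against 27.6% of all genes). Eif3a, Eif3e, Eif3f, Eif3i, Eif4a2, Eif4ebp1 and Eif4ebp2 were then higher in XY (16.9% of all genes were), and Eif1ax, Eif5b and Eif6 lower (10.7%). The 5′ signal of Actb grouped XX 1 with the XY arrays in the same way. With the ratio of the 3′ to the 5′ control of Actb as a covariate, 0 of 42 genes passed (1.90% of all genes did). Eif1ax then changed by -0.98 (adjusted p = 0.0527) and Eif4ebp1 by 0.84 (adjusted p = 0.103), Eif3e by 0.43 and Eif5b by -0.63.

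**Figure D5:**
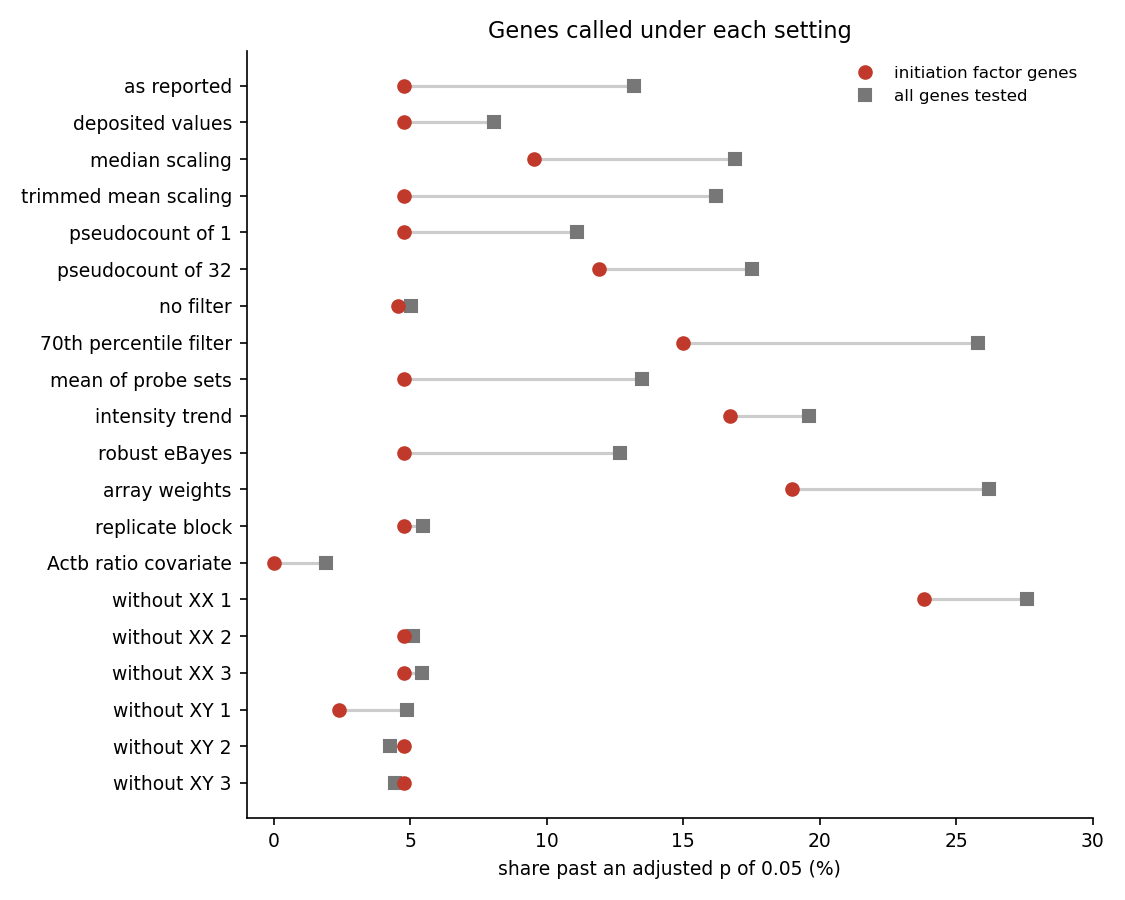
Share of initiation factor genes (circles) and of all genes tested (squares) past an adjusted p of 0.05, in percent, as reported and under each of 19 alternative settings. The share of initiation factor genes runs from 0% with the Actb covariate to 23.8% without XX 1, and it is below the share of all genes in each setting except those without XY 2 and without XY 3.

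Genes that work with the initiation factors were taken from 4 lists. Of the 66 tested, 9 passed the test (13.6%, against 13.2% of all genes), with 3 higher and 6 lower in XY. The 6 include Rps6kb2, which passed the filter through XX arrays alone, and Nck1, whose probe sets disagree in sign. Among 20 initiation cofactors, 2 rose and 3 fell (25% called, against 13.2% of all genes). Mknk2, a kinase that phosphorylates eIF4E, rose by 1.51 ± 0.18 (limma's adjusted p = 0.00598), and it passed in all 19 alternatives. Pabpc1, the poly(A)-binding protein, rose by 1.24 ± 0.27 (adjusted p = 0.0284) but passed in only 9 of 19. Paip1, a partner of Pabpc1, fell by 0.89 (adjusted p = 0.0334) and passed in 11 of 19. Its call was lost when any array other than XX 1 was left out (adjusted p from 0.0785 to 0.0998). The call was also lost with no filter (0.0672), with the replicate block (0.0571), and with the Actb covariate, where the change was -0.48 (0.175). Cyfip2, a relative of an eIF4E-binding protein, changed by -0.56 (adjusted p = 0.0498) and passed in only 6 of 19, and its other probe sets changed by -0.49 and -0.17. X-linked Mcts1, which acts with Denr in reinitiation and was named after its values were seen, changed by -0.65 (adjusted p = 0.0498) and passed in only 7 of 19.

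Among 16 genes of elongation and termination, 1 rose and 1 fell (12.5% called, against 13.2% of all genes). Gspt2, an X-linked gene of the release factor eRF3, fell by 1.57 ± 0.15 (limma's adjusted p = 0.00328) and passed in all 19 alternatives, while its other probe set changed by -0.08. Dhps, the enzyme that starts the hypusine modification of eIF5A, rose by 0.88 ± 0.14 (adjusted p = 0.0124), and it passed in 14 of 19. Its other kept probe set changed by 0.06 (adjusted p = 0.871), and the average of both by 0.47 (0.0817). Among 12 genes of the integrated stress response only Nck1, an adaptor that limits phosphorylation of eIF2, passed (8.33%, against 13.2% of all genes). Nck1 changed by -0.64 ± 0.15 (limma's adjusted p = 0.0365). Its other probe set changed by 0.68, so no direction is given for it. The effectors Atf4 and Ddit3, named after their values were seen, changed by 0.10 and 0.15 and did not pass. Among 18 genes of mTOR signalling only Rps6kb2, a kinase of ribosomal protein S6, passed (5.56%, against 13.2% of all genes). Its levels were 5.62, 5.72 and 6.17 in XX and 3.95, 3.94 and 3.88 in XY, the latter near the lower limit that the added 9 sets. It passed the filter through the 3 XX arrays alone, with 0 XY arrays at their median, so its difference of -1.91 (adjusted p = 0.00332) had to appear once the gene was kept and is given as a description. It was not tested when an XX array was left out or with the stricter filter, and in the 15 alternatives that kept it the difference ran from -2.78 with a pseudocount of 1 to -1.07 with a pseudocount of 32.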

How the data were processed

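RNA was measured on 6 Affymetrix arrays, and the deposited table holds 1 linear intensity per probe set and array; MAS5 is the only tool named in the submitters' processing notes, with no version. The arrays' trimmed means, leaving out 2% at each end, ran from 194 to 333, so the 6 arrays were quantile-normalized without the 64 control probe sets and log2(intensity + 9) was taken, 9 being the rounded 25th percentile. The platform annotation gave 34945 probe sets 1 symbol, 932 several and 9160 none listed; 34741 matched RefSeq's GRCm38.p6 gene table. Probe sets no lower than the array median on 3 or more arrays were kept (22997), and the brightest stood for its gene. XY was compared with XX in limma 3.58.1 (R 4.3.3) (lmFit, eBayes); p-values were adjusted by Benjamini-Hochberg over all genes or all probe sets. The labels call the arrays biological replicates; 3 per group limit the precision of each value. The fit was tested on simulated data.

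Members and lists were chosen with earlier results of these data known. Named genes were those past the adjusted p, the smallest p of each other role group, X-linked members, members whose probe sets disagree in sign with one called, and up to 4 called genes per list. Alternatives changed the scaling, the pseudocount, the filter, how probe sets were combined, the variance estimate and the array weights, added a replicate block or the Actb ratio as covariate, or left out each array in turn.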

Additional observations from a re-analysis of the deposited data

How the results depend on the processing

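Eif1ax was called in 18 of 19 alternatives and Eif4ebp1 in 16, and neither changed sign. The 2 initiation factor genes called became 4 with median scaling, 5 with a pseudocount of 32, 6 with a 70th percentile filter, 7 with an intensity trend, 8 with array weights and 0 with the Actb covariate, and 1 to 10 when 1 array was left out. The 5 probe sets called became 12, 10, 12, 14, 18 and 0 in the same settings, 2 with no filter, 1 with the replicate block, and 1 to 17 when 1 array was left out. The 9 genes called in the other lists became 5 with deposited values, 16 with median scaling, 5 with no filter, 14 with an intensity trend, 16 with array weights, 5 with the replicate block and 3 with the Actb covariate, and 3 to 16 when 1 array was left out. Nck1 reversed to 0.018 when its probe sets were averaged. The causes were not tested. Higher calls made up 59.5% of all calls as reported, 47.2% with deposited values, 22.9% with median scaling and 70.9% with trimmed mean scaling. The replicate block left 2 initiation factor genes called. Deviations of same-numbered arrays correlated at -0.10, 0.00 and -0.04, and none of the 6 correlated best with its own number. With 3 arrays per group this cannot decide whether the numbers mark litters, which the labels do not say. Dim probe sets, such as those of Eif1a and Eif5a2, lie near the added 9, where changes are understated.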

Other observations

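The X-linked eIF2 gamma subunit gene Eif2s3x, left out of the members by their definition, had a level of 9.49 ± 0.48 in XX and 8.48 ± 0.42 in XY (SD, n = 3) on the scale of log2(intensity + 9). The groups did not overlap, and its change of -1.01 ± 0.31 (SE, 3 arrays per group) had an adjusted p of 0.0688 by limma. Another probe set of Eif2s3x had overlapping groups, with quantile-normalized intensities of 310, 217 and 198 in XX and 213, 174 and 177 in XY. A further probe set did not overlap, at 566, 763 and 458 in XX and 393, 360 and 275 in XY. Eif4enif1, the shuttling partner of eIF4E, left out likewise, changed by -0.19 ± 0.16 (adjusted p = 0.445) with overlapping groups. Eif2s3x and Eif4enif1 were counted among the 20 initiation cofactors tested.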
